A study of Homo sapiens with 6 samples.

Results

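The integrins of leukocytes were examined in 6 mRNA-seq libraries of Kasumi-1, cells established from a human acute myeloid leukaemia with a RUNX1-RUNX1T1 fusion. The group was defined by gene name as the rows of ITGAM, ITGAX, ITGAL, ITGB2, ITGA4, ITGA5, ITGA6, ITGB1, ITGA2B and ITGAV, and all 10 were found among the 29810 genes of the deposited table. Control cells and cells incubated with 0.25 μM of the HDAC inhibitor I3 each gave 3 libraries, after 48 h according to the sample labels. The control cells received the solvent DMSO at the concentration of the I3 solution, and both groups were the same line without any further genetic change. The libraries of a group carry numbers only, so p-values measure the spread between these libraries, which may be technical. A legend of the study gives a longer incubation, and the name of the deposited table numbers the compound differently, which the values cannot settle.

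An integrin is a pair of an α and a β chain that spans the cell membrane and binds matrix proteins or receptors on other cells. The β2 chain (ITGB2) is restricted to leukocytes and pairs with αM (ITGAM, CD11b), αX (ITGAX, CD11c) and αL (ITGAL, CD11a). CD11b appears on maturing granulocytes and monocytes, and the study stained it on the cell surface as a marker of differentiation. By flow cytometry it reported higher CD11b and CD14 protein on Kasumi-1 cells with I3. That was another measure, taken at a later time than the 48 h of these mRNA libraries. The β1 chain (ITGB1) pairs with many α chains, among them α4 (ITGA4), α5 (ITGA5), α6 (ITGA6) and αV (ITGAV), and holds progenitors in the marrow. The αIIb chain (ITGA2B) belongs to platelets and their precursors.

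The sequences before the transcription starts are shown for CD11b, for the platelet chain and for the 3 most abundant integrins, because the levels of these genes lay far apart. They are the 250 bases before the RefSeq start on GRCh38.p14, read in the direction of the gene. Capitals mark GAGGAA, the core recognized by PU.1, and GGGCGG, the GC box, on either strand, and no marked motif overlapped another.
ITGAM, chr16:31259725-31259974, plus strand: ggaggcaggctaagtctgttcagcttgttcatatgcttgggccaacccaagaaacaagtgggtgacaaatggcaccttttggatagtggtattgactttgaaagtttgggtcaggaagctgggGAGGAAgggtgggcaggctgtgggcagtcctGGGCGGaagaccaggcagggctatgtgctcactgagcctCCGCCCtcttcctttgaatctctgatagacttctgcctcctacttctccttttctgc
ITGA2B, chr17:44389650-44389899, minus strand: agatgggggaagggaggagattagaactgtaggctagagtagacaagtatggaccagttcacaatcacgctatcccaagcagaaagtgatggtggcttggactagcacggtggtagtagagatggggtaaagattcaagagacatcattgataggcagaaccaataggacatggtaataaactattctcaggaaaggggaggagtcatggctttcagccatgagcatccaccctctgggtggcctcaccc
ITGB1, chr10:32958231-32958480, minus strand: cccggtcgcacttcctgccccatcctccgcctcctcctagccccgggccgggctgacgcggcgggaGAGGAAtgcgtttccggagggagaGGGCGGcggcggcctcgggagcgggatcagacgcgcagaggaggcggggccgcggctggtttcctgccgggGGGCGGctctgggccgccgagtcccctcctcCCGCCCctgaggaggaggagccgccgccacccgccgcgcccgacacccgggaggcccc
ITGA5, chr12:54419267-54419516, minus strand: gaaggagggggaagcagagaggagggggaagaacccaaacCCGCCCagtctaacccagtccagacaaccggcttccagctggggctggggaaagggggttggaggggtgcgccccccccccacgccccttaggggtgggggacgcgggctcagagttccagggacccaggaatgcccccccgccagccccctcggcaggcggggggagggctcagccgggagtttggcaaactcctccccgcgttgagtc
ITGA4, chr2:181457136-181457385, plus strand: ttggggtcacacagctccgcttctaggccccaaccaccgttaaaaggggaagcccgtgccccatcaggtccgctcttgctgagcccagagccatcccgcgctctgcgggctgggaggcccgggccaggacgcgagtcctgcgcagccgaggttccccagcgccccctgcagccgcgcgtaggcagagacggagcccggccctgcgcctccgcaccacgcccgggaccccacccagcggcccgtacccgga

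ITGA6, ITGAV and ITGB1 have 2 RefSeq starts, and the one shown for ITGB1 is the first, while the window of its other start held 4 CpG dinucleotides. The ITGAM and ITGA2B windows each held 2 CpG dinucleotides, and the shown windows of ITGB1, ITGA5 and ITGA4 held 32, 12 and 25. The windows not shown held 8 and 30 for the starts of ITGA6, and 18 and 1 for those of ITGAV. Thus CpG content did not follow the level of the gene in every window. Among 35116 windows of this length 14.7% had fewer CpG than ITGAM or ITGA2B, and the median was 11. Among the shown windows GAGGAA was found 1 time each in ITGAM and ITGB1, and 23.6% of all windows held it. The window of the first ITGAV start, not shown, held it 1 time. The GC box was found 2 times in ITGAM, 3 times in ITGB1 and 1 time in ITGA5 among the shown windows, and in 42.6% of all windows. The window of the second ITGA6 start, not shown, held it 3 times. These matches describe letters and not binding. RefSeq windows were at hand for 7 of the 10 genes, and those of ITGAX, ITGAL and ITGB2 were not.

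The rebuilt depth was 17500320 to 17798678 reads in control and 17794813 to 18193373 reads in I3 libraries. Myeloid markers were high, with MPO at 7740 to 8612 FPKM (fragments per kilobase of exon, scaled to the sequenced fragments of the library), KIT at 198 to 225 FPKM and CD34 at 28.9 to 38.8 FPKM. Markers of mature cells were mixed. CD14 had 1 read in all 6 libraries together, and PPBP had 0 reads in each, which allows up to 3 reads in a library. The summed monocyte markers (2 of 5 with a row) were at 4.46 to 5.06 FPKM in control and 3.91 to 5.84 FPKM in I3 libraries, nearly all of it CSF1R, the receptor of macrophage colony-stimulating factor, which exceeded the mean of 77.4% of rows. The neutrophil list had 1 of 4 with a row, CXCR2, at 0.732 to 1.04 FPKM, the T and NK cell list was at 0.234 to 1.15 FPKM in sum, and the B cell list at 1.00 to 2.13 FPKM, mostly CD79A. Markers of other lineages were present as well, with EPCAM at 28.2 to 31.6 FPKM and EPOR at 2.23 to 3.07 FPKM. None of the 8 markers of myeloid blasts differed between the groups at an unadjusted p under 0.05 by limma. Only 4.93% of all tested genes passed that p in either direction. Gene levels moved with transcript GC content in a way that differed between libraries. The rank correlation of GC content with a library's deviation from the gene mean was -0.313, 0.446 and 0.337 in control 1, 2 and 3, and -0.232, 0.262 and -0.446 in I3 1, 2 and 3.

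The 10 integrins fell into 6 with a mean of at least 0.5 FPKM and 4 below it. In order of the mean over 6 libraries they were ITGB1 (91.8 FPKM), ITGA5 (34.3 FPKM), ITGA4 (32.9 FPKM), ITGB2 (21.9 FPKM), ITGAV (7.72 FPKM), ITGA6 (5.04 FPKM), ITGA2B (0.182 FPKM), ITGAL (0.170 FPKM), ITGAM (0.0990 FPKM) and ITGAX (0.0979 FPKM). The ranges over libraries overlapped between ITGA5 and ITGA4, and between each neighbouring pair from ITGA2B to ITGAX. All other neighbours were separated in every library. ITGB1 exceeded the mean of 98.8% of the rows of the table, and ITGAM exceeded that of 39.3%. These 10 genes held 94.9% to 95.6% of the summed FPKM of the 24 integrin genes with a row, and ITGB1 alone held 42.6% to 47.4%.

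**Figure D1:**
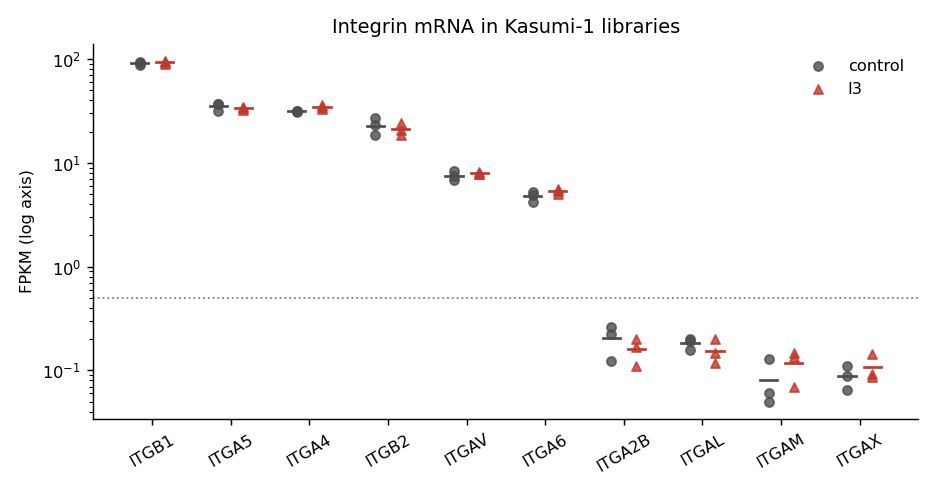
FPKM (log axis) of the 10 integrins in 3 control (circles) and 3 I3 libraries (triangles), in order of the overall mean, with a bar at the mean of each group and a dotted line at 0.5 FPKM. ITGB1, ITGA5, ITGA4, ITGB2, ITGAV and ITGA6 lie between 4.22 and 95.5 FPKM, and the other genes lie between 0.0496 and 0.263 FPKM.

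CD11b mRNA was close to the limit of detection in control cells and in cells incubated with I3. ITGAM (ENSG00000169896, chromosome 16 from 31259967 to 31332892) had 0.130, 0.0496 and 0.0605 FPKM in control 1, 2 and 3, and 0.149, 0.0694 and 0.136 FPKM in I3 1, 2 and 3. These values stand for 13, 5 and 6 reads in the controls, against 15, 7 and 14 with I3. Both groups held low and high libraries and overlapped. Mean ITGAM was 0.0800 ± 0.0436 FPKM in controls (SD, n = 3) and 0.118 ± 0.0425 FPKM with I3 (SD, n = 3). In these bulk libraries the share of cells with ITGAM mRNA and its amount per cell cannot be told apart. The ratio of reads per depth was 1.48, with an exact binomial 95% interval of 0.857 to 2.59 that covers counting error only and includes 1. On the scale of log2(FPKM + 0.5) the difference was 0.092 (standard error 0.0867, adjusted p = 0.898 from limma without a minimum FPKM), and the two-sided exact permutation p was 0.2. This scale understates changes of low genes, and with a pseudocount of 0.1 the difference was 0.28. With single libraries left out it lay between 0.054 (without control 2) and 0.15 (without control 1). A difference between 3 and 3 libraries cannot reach an exact p below 0.1.

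The other α chains of β2 were as low. ITGAX (ENSG00000140678, chromosome 16 from 31355134 to 31382997), the chain of dendritic cells and macrophages, was at 0.0880, 0.111 and 0.0646 FPKM in control 1, 2 and 3 (11, 14 and 8 reads) and at 0.143, 0.0874 and 0.0932 FPKM in I3 1, 2 and 3 (18, 11 and 12 reads). ITGAL (ENSG00000005844, chromosome 16 from 30472658 to 30523185), the LFA-1 chain of most leukocytes, was at 0.192, 0.200 and 0.159 FPKM in the controls (22, 23 and 18 reads) and at 0.199, 0.148 and 0.119 FPKM with I3 (23, 17 and 14 reads). The groups overlapped for both genes. The ratio of reads after I3 to control was 1.22 (interval 0.754 to 2.00) for ITGAX and 0.844 (interval 0.576 to 1.23) for ITGAL. The log2 difference of ITGAX was 0.048, and 0.0065 without I3 1, and that of ITGAL was -0.063, with -0.11 without I3 1 and -0.022 without I3 3. All 3 genes lie on the plus strand within 910340 bases of chromosome 16, and 22241 bases separate ITGAM from ITGAX. ITGAM and ITGAX share no exon base with another gene in GENCODE release 29, and ITGAL shares up to 6.41% of its exon bases with an antisense gene.

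ITGA2B (ENSG00000005961, chromosome 17 from 44372180 to 44389505), whose chain forms the platelet receptor of fibrinogen, was at 0.224, 0.263 and 0.124 FPKM in the controls (22, 26 and 12 reads) and at 0.202, 0.111 and 0.168 FPKM with I3 (20, 11 and 17 reads). The groups overlapped, and reads with I3 over control came to 0.787 (interval 0.527 to 1.17). The log2 difference was -0.088, with -0.17 without control 3 and -0.027 without control 2. Its partner ITGB3 had 1 read in control 3, 1 in I3 2 and 0 in the other libraries. ITGB3 shares 51.6% of its exon bases with another protein-coding gene on the same strand, so its value is uncertain. The megakaryocyte markers with a row (4 of 5) summed to 1.08 to 1.27 FPKM in control and 1.17 to 2.20 FPKM in I3 libraries, with PPBP at 0. GP1BA, a platelet receptor for von Willebrand factor, was at 0.786 to 0.800 FPKM and 0.921 to 1.35 FPKM. Its groups did not overlap, as in 5.06% of tested genes in this direction, with an unadjusted p of 0.136 and an adjusted p of 0.998 from limma. PF4 is not analysed here.

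**Figure D2:**
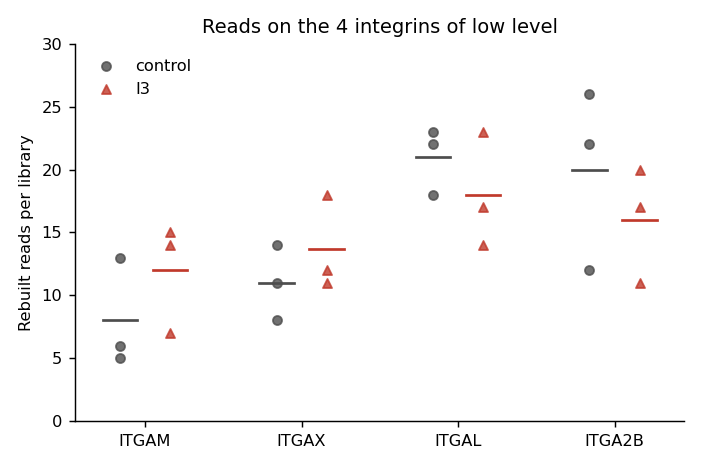
Reads rebuilt from FPKM (linear axis from 0) for the 4 integrins under 0.5 FPKM, with 3 control libraries as circles, 3 I3 libraries as triangles and a bar at each group mean. All libraries lie between 5 and 26 reads, and the groups overlap for each gene.

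The β2 chain itself was well expressed. ITGB2 (ENSG00000160255, chromosome 21 from 44885953 to 44931989) had 18.4, 26.8 and 22.9 FPKM in control 1, 2 and 3, and 18.7, 24.0 and 20.9 FPKM in I3 1, 2 and 3, with 2204 to 3247 reads in a library. Control 2 was highest and control 1 was lowest, so the groups overlapped throughout. Mean ITGB2 was 22.7 ± 4.24 FPKM in controls and 21.2 ± 2.67 FPKM with I3 (SD, n = 3 each). Its log2 fold change was -0.088 (SE 0.146, 95% interval -0.43 to 0.25, adjusted p = 0.998 from limma), smaller than the spread between libraries. Without control 2 it was 0.039, and without control 1 it was -0.23. The transcripts of ITGB2 have a median GC content of 61.4%, and its 3 highest libraries were those with a positive GC correlation. After removal of the GC trend it had 18.8, 25.3 and 22.5 FPKM in control and 19.1, 23.2 and 22.1 FPKM in I3 libraries, and the highest control exceeded the lowest by 1.35-fold instead of 1.46-fold. ITGB2-AS1 overlaps 4.46% of its exon bases on the opposite strand.

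ITGB2 mRNA exceeded the mRNA of its examined partners by far, with levels compared per length. ITGB2 divided by the sum of ITGAM, ITGAX and ITGAL was 44.7, 74.5 and 80.6 in control 1, 2 and 3, and 38.1, 78.8 and 60.0 in I3 1, 2 and 3. ITGB2 divided by ITGAM alone ranged from 126 in I3 1 to 541 in control 2. The sum of the α chains as a ratio to ITGB2 averaged 0.0161 ± 0.00547 in controls and 0.0185 ± 0.00698 with I3 (SD, n = 3 each), with a two-sided exact permutation p of 0.6 and an adjusted p of 0.9 over 3 such measures. On the log2 scale the difference was 0.19, and -0.092 without I3 1. ITGAM held 31.7%, 13.8% and 21.3% of the summed α chains in control 1, 2 and 3, and 30.3%, 22.8% and 39.0% in I3 1, 2 and 3. The groups of this share overlapped (exact permutation p = 0.3, adjusted p = 0.9). In all, 120 reads in control and 131 reads in I3 libraries fell on the 3 genes, which is 1.08 per depth (interval 0.832 to 1.39). A further β2 partner, ITGAD, is not analysed here.

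The β1 chain was nearly matched by its examined partners. ITGB1 (ENSG00000150093, chromosome 10 from 32900319 to 33005792) had 93.5, 87.4 and 91.3 FPKM in control 1, 2 and 3, and 93.6, 89.6 and 95.5 FPKM in I3 1, 2 and 3. The groups overlapped and the highest library exceeded the lowest by only 1.09-fold. ITGB1 divided by the sum of ITGA4, ITGA5, ITGA6 and ITGAV lay between 1.08 and 1.23 in the 6 libraries. The ratio of these α chains to ITGB1 averaged 0.868 ± 0.0551 in controls and 0.876 ± 0.0419 with I3 (SD, n = 3 each, exact permutation p = 1, adjusted p = 1). Its log2 difference of 0.014 became -0.032 without control 1 and -0.023 without I3 2. These sums leave out ITGA9, a β1 partner at 5.55 to 7.12 FPKM, so they do not cover all partners of ITGB1. The log2 fold change of ITGB1 was 0.034 (95% interval -0.088 to 0.16, adjusted p = 0.998 from limma), and after removal of the GC trend it was -0.015.

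**Figure D3:**
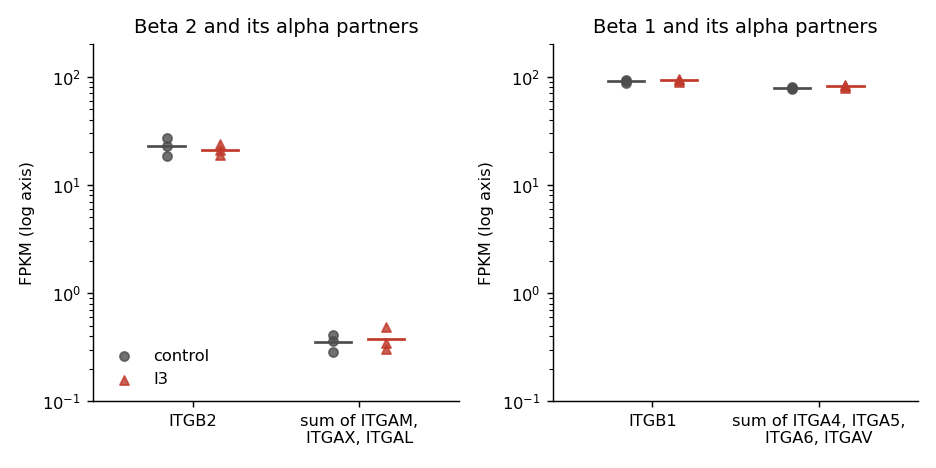
FPKM (log axis) of ITGB2 and of the sum of ITGAM, ITGAX and ITGAL (left), and of ITGB1 and the sum of ITGA4, ITGA5, ITGA6 and ITGAV (right), in control (circles) and I3 libraries (triangles) with a bar at each group mean. ITGB2 lies 38.1-fold to 80.6-fold above the sum beside it, and ITGB1 lies 1.08-fold to 1.23-fold above the sum beside it.

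ITGA4 was the only integrin whose groups did not overlap. ITGA4 (ENSG00000115232, chromosome 2 from 181457202 to 181536187), the α chain of VLA-4 that binds VCAM1 and fibronectin, had 30.8, 31.8 and 31.6 FPKM in control 1, 2 and 3, and 33.0, 34.6 and 35.8 FPKM in I3 1, 2 and 3. Each I3 library was above each control library. Mean ITGA4 was 31.4 ± 0.509 FPKM in controls and 34.5 ± 1.41 FPKM with I3 (SD, n = 3 each), higher in 3 of 3 I3 libraries. Its log2 fold change was 0.13 (SE 0.0530, 95% interval 0.0056 to 0.26, unadjusted p = 0.0426, adjusted p = 0.998 from limma), and the exact permutation p was 0.1. Thus the difference failed the correction over all genes and was below the fold threshold of 0.58. The unadjusted p of limma was above 0.05 after GC correction (0.139), without the trend (0.084), with median-of-ratios scaling (0.0705) and with any single library other than I3 1 left out (0.0749 to 0.132), and was 0.0378 without I3 1. Of the 12960 tested genes 5.06% had every I3 library above every control library, and 4.93% had an unadjusted p under 0.05 in either direction. The groups of 9.7% did not overlap in one direction or the other. After removal of the GC trend ITGA4 had 29.7, 33.0 and 32.7 FPKM in control and 32.4, 35.0 and 34.5 FPKM in I3 libraries, and the groups overlapped, with a log2 fold change of 0.095.

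ITGA5 (ENSG00000161638, chromosome 12 from 54395261 to 54419460), the α chain of the fibronectin receptor, had 31.7, 36.6 and 36.5 FPKM in control 1, 2 and 3, and 32.5, 34.8 and 33.6 FPKM in I3 1, 2 and 3. Control 1 was the lowest library and the groups overlapped. The log2 fold change was -0.052 (95% interval -0.22 to 0.11, adjusted p = 0.998 from limma), with -0.12 without control 1 and -0.018 without control 2. ITGA4 and ITGA5 were thus present at similar levels. Their ratio, chosen after the values had been seen and given without a test, was 0.972, 0.870 and 0.866 in control 1, 2 and 3, and 1.02, 0.994 and 1.07 in I3 1, 2 and 3. With the GC trend removed it was 0.904 to 0.936 in control and 0.988 to 1.04 in I3 libraries. The groups were apart in both forms, which is no test for a ratio picked from values already seen.

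**Figure D4:**
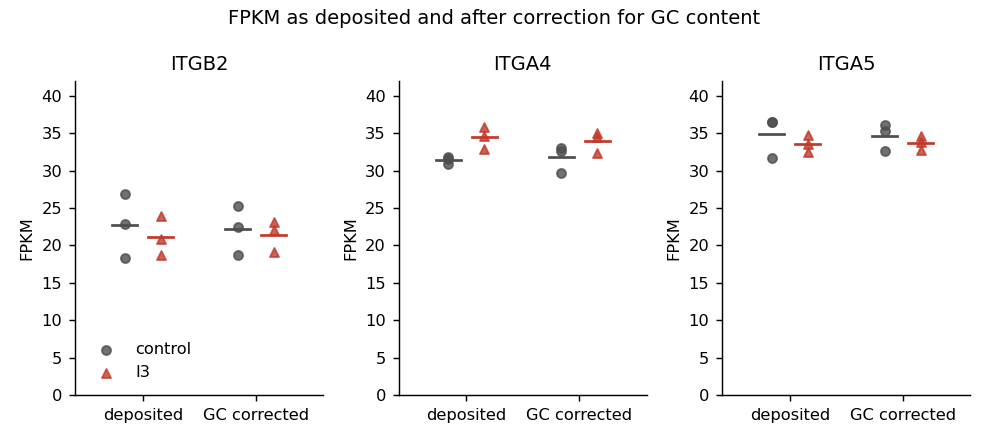
FPKM (linear axis from 0) of ITGB2, ITGA4 and ITGA5 as deposited and after correction of each library for GC content, with 3 control libraries as circles, 3 I3 libraries as triangles and a bar at each group mean. The ITGA4 groups are apart as deposited and overlap after the correction, where control reaches 33.0 FPKM and I3 begins at 32.4 FPKM.

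The remaining α chains of β1 were of medium level. ITGA6 (ENSG00000091409, chromosome 2 from 172427354 to 172506282), a laminin receptor chain that also pairs with β4, had 5.22, 4.95 and 4.22 FPKM in control 1, 2 and 3, and 5.03, 5.32 and 5.54 FPKM in I3 1, 2 and 3. Control 3 stood lowest, the groups overlapped, and without it the log2 fold change moved from 0.13 (95% interval -0.080 to 0.35) to 0.054. ITGAV (ENSG00000138448, chromosome 2 from 186590065 to 186680901), a chain of receptors for vitronectin, had 8.25, 7.40 and 6.86 FPKM in control 1, 2 and 3, and 8.09, 7.85 and 7.88 FPKM in I3 1, 2 and 3. Its control libraries enclosed all I3 libraries, and the log2 fold change was 0.081 (95% interval -0.10 to 0.27). It was 0.013 after GC correction, 0.022 without control 3 and 0.15 without control 1. The adjusted p of both genes was 0.998 from limma.

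Of the group as a whole, 0 of 10 integrins passed an adjusted p of 0.05 with a log2 fold change of 0.58 in limma, as did 0% of all tested genes in either direction, with and without the minimum FPKM. At an unadjusted p under 0.05 there was 1 of the 6 genes past the minimum (ITGA4) and 0 of the 4 genes below it, with no other tool run. Without the minimum FPKM 3.9% of all genes passed that p. With the fold threshold added 0 of the 10 remained, against 0.756% of tested genes higher and 0.648% lower (0.53% and 0.395% without the minimum). None of the 10 exceeded the fold threshold, as 2.77% of tested genes did and 2.59% without the minimum. The groups of the 4 low genes overlapped, where without the minimum 3.92% of genes were apart and higher, 3.63% apart and lower, and 7.55% apart in all. The log2 fold change was above 0 for 6 genes and below 0 for 4, where 54.2% of the tested genes were above 0 (53.1% without the minimum). The median was 0.0405 over the 10 genes and 0.011 over all tested genes. The 95% interval stayed within 0.58 in either direction for all 10, from -0.43 for ITGB2 to 0.35 for ITGA6, on a scale that compresses the 4 low genes.

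**Figure D5:**
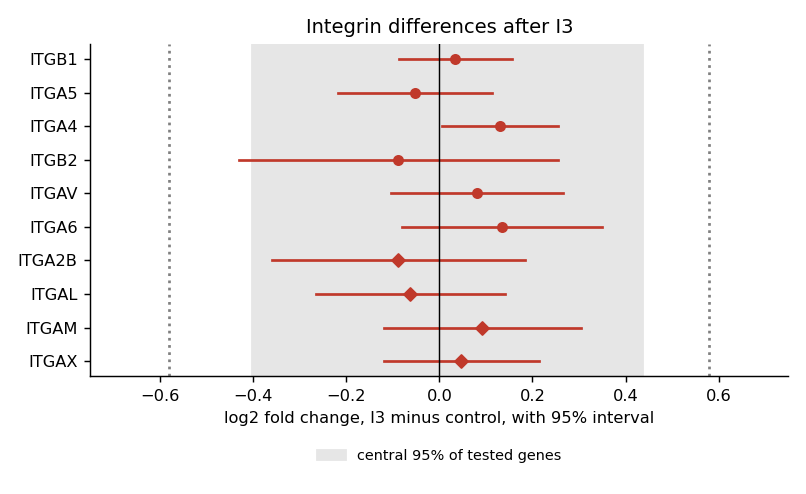
Log2 fold change of each integrin (I3 minus control, on log2(FPKM + 0.5)) with its 95% interval from limma, as circles for genes of at least 0.5 FPKM and as diamonds for those below. The grey band spans the central 95% of all tested genes (-0.40 to 0.44), the dotted lines mark 0.58 in either direction, and every interval lies between these lines.

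Of the 16 other integrin chains 14 had a row and 3 passed the minimum. ITGA9, a further α partner of β1, had 5.55 to 6.86 FPKM in control and 6.19 to 7.12 FPKM in I3 libraries. ITGAE, the chain of lymphocytes in epithelia, had 0.944 to 1.02 FPKM and 0.999 to 1.27 FPKM, and ITGB4 had 0.904 to 1.26 FPKM and 0.889 to 1.08 FPKM. None of the 3 passed the unadjusted p by limma, where 4.93% of all tested genes did in either direction. Their groups overlapped, where those of 9.7% of tested genes did not. ITGB6 and ITGB8 were listed at 0 in every library, and ITGB7, which can pair with α4, had 2 reads in control and 4 in I3 libraries. ITGB7 shares 42.1% of its exon bases with ZNF740 on the opposite strand, so its value is uncertain.

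Activators and adaptors turn integrins on from inside the cell, and 28 of 35 listed genes passed the minimum. By limma 0 were called, and at an unadjusted p under 0.05 there were 0 higher and 1 lower, a share no larger than the 4.93% of all tested genes. The median log2 fold change was -0.015. TLN1 (talin), which binds the β tail, had 44.8 to 55.4 FPKM in control and 49.4 to 51.9 FPKM in I3 libraries. APBB1IP, which links RAP1 to talin, had 69.2, 71.5 and 64.8 FPKM in control 1, 2 and 3, and 61.2, 62.8 and 59.1 FPKM in I3 1, 2 and 3. Each I3 library was below each control library, with a log2 fold change of -0.16 (unadjusted p = 0.0216, adjusted p = 0.932 from limma). FERMT3 (kindlin-3), the second activator at the β tail in blood cells, had 88.2, 92.6 and 88.0 FPKM in control 1, 2 and 3, and 87.0, 87.3 and 79.0 FPKM in I3 1, 2 and 3. Its groups were also apart, as were those of 4.64% of the tested genes in this direction, and its log2 fold change was -0.087 (adjusted p = 0.998 from limma). ILK, an adaptor of 0.0645 to 0.174 FPKM, shares 68.1% of its exon bases with TAF10 on the opposite strand, so its value is uncertain.

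The pattern over the 6 libraries was compared with that of 6642 genes with a mean of at least 5 FPKM. CDC27 (Pearson r = 0.996) and ACTR2 (0.993) were among the 3 genes most like ITGAM, and HTRA2 (0.997), GNA12 (0.997) and KIF2C (0.995) were most like ITGB2. The GC content was 41.0% for CDC27 and 43.9% for ACTR2, against 55.1% for ITGAM. It was 50.3% to 55.8% for those like ITGB2, against 61.4% for ITGB2. These correlations were picked as the highest of 6642 over only 6 libraries, so their height is no test of likeness. They describe the same 6 libraries, whose GC trends differ, and for ITGAM they rest on 5 to 15 reads in a library.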

How the data were processed

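Stranded libraries of polyadenylated RNA were sequenced for 3 control and 3 I3 samples of Kasumi-1 cells. The authors deposited FPKM for 29810 genes, with 1 column per library. The submitters' processing notes name Trimmomatic, HISAT2, Cufflinks, HTSeq and hg38. The annotation used, and whether reads were counted by strand, were not given in the sources used here. Gene names, coordinates and exon lengths were taken from GENCODE release 29 on GRCh38 (29703 rows found), and promoters from RefSeq.

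FPKM multiplied by exon length gave whole reads in every library, within 0.1 read, for 95.4% of the 26609 genes above 0, which gave the depth. Libraries of a group were not copies (lowest chi-square per degree of freedom 4.23 over 12760 genes).

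limma 3.58.1 in R 4.3.3 (eBayes with trend) was applied to log2(FPKM + 0.5) of the 12960 genes averaging 0.5 FPKM or more, because FPKM are not counts, and p-values were adjusted by the Benjamini-Hochberg method. Alternatives changed the pseudocount, minimum, scaling, trend, block and libraries. Genes below the minimum were taken from the same fit of 26609 genes. Exact permutation tests used scipy 1.17.1. On simulated data for this comparison over 12960 genes, limma called 85% of genes with a log2 change of 1 and 95% of those with a log2 change of 2. These were genes of at least 0.5 FPKM with independent normal noise, so the shares do not apply to ITGAM, ITGAX, ITGAL and ITGA2B.

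The integrins, the lists and the tests were chosen with earlier results of these data known. Besides the 10 integrins and the cell type markers, genes were named from each list where the groups did not overlap, up to 2 in each direction by unadjusted p, and 3 genes by likeness to ITGAM and to ITGB2. Some genes that this rule names are not reported here. Genes named outside this rule, chosen after their values were seen, are ITGB3, ITGB4, ITGB6, ITGB7, ITGB8, ITGA9, ITGAE, TLN1, ILK, ICAM1, TGFB1, F11R, VCAM1, CD63, CD81, CD37 and CD82. The GC correction removed a lowess trend (span 0.3) of each library over the tested genes.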

Additional observations from a re-analysis of the deposited data

How the results depend on the processing

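No integrin was called in any of the 15 alternatives of limma. Over all genes at most 1 was called higher and 2 lower in any of them, so this says little about the integrins. The alternatives were pseudocounts of 0.1 and 1, no minimum FPKM and a minimum of 1, TPM and median-of-ratios scaling. The others were no trend, the replicate block, GC correction and each library left out. Of 250 values recomputed under alternatives, 237 kept their direction and side of the threshold (counts of genes within 1.5 times), 5 turned and 8 counts of genes moved further. The values that turned were ITGB1 with -0.015 after GC correction, ITGB2 (-0.23 to 0.039 with single libraries left out, 0.039 without control 2), the log2 ratio of β2 partners to ITGB2 (0.19, and -0.092 to 0.46, with -0.092 without I3 1), and the log2 ratio of β1 partners to ITGB1 (0.014, and -0.032 to 0.060, with -0.032 without control 1 and -0.023 without I3 2). The cause was not tested.

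Over all genes, 98 were higher and 84 lower at the unadjusted p with the fold threshold. The higher ones became 62 with a pseudocount of 1, 44 with a minimum of 1 FPKM and 229 with TPM, and the lower ones 162 with TPM, where 16857 genes passed the minimum. With single libraries left out, 91 to 145 were higher and 73 to 132 lower, with 132 without I3 1. At the adjusted p the counts were 0 to 1 higher and 0 to 2 lower, with 1 higher without control 1, 2 lower without I3 1 and 1 lower without I3 2. With the replicate block 109 genes were higher and 91 lower at the unadjusted p. The deviations of libraries of the same number correlated weakly or not at all (0.063, 0.151 and -0.024 for numbers 1, 2 and 3). The value for number 2 was the highest of all pairs. Control 1 correlated more with I3 3 (0.101) than with I3 1, so the numbers were not read as pairs. The block changed no call of an integrin, though it lowered the standard error of ITGB2 from 0.146 to 0.0571 (adjusted p = 0.832 from limma). The unadjusted p of ITGA4 in limma was 0.0325 with it and 0.0209 to 0.139 over all alternatives. ITGAD has no value here, so the β2 ratio with it was not run. Few reads limit ITGAM, ITGAX, ITGAL and ITGA2B.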

Other observations

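The lateral partners of integrins, mostly tetraspanins that gather them in the membrane, ranged from low to abundant. Of 9 listed genes 8 had a row and passed the minimum, with CD63 at 61.6 to 70.5 FPKM, CD81 at 29.3 to 32.6 FPKM and CD37 at 31.7 to 33.7 FPKM over the 6 libraries, and CD82 lowest with a mean of 1.14 FPKM. By limma 0 were called, and at an unadjusted p under 0.05 there were 0 higher and 1 lower, where 4.93% of all tested genes passed in either direction. SLC3A2, the heavy chain of amino acid transporters that binds β1, had 21.0, 22.9 and 22.6 FPKM in control 1, 2 and 3, and 20.2, 20.2 and 20.1 FPKM in I3 1, 2 and 3. Each I3 library was below each control library, with a log2 fold change of -0.13 (unadjusted p = 0.0466, adjusted p = 0.998 from limma). CD151, a tetraspanin of laminin-binding integrins, had 7.02, 7.26 and 6.63 FPKM in control and 6.56, 6.35 and 5.07 FPKM in I3 libraries. Its groups were also apart, as were those of 4.64% of tested genes in this direction (log2 fold change -0.21, adjusted p = 0.998 from limma), and POLR2L overlaps 6.53% of its exon bases on the opposite strand.

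Of 28 ligands and counter-receptors 23 had a row and 10 passed the minimum. By limma 0 passed the unadjusted p in either direction, where 4.93% of all tested genes did. ICAM1, a ligand of β2 integrins, had 5.39 to 6.64 FPKM in control and 5.06 to 5.57 FPKM in I3 libraries, which overlapped (log2 fold change -0.20, adjusted p = 0.998 from limma). ICAM4-AS1 overlaps 22.0% of the ICAM1 exon bases on the opposite strand, so the ICAM1 value is uncertain. F11R, a junctional ligand of αL, had 9.44 to 11.1 FPKM and 9.23 to 10.1 FPKM. It shares 36.6% of its exon bases with another protein-coding gene on the same strand, so its value is uncertain. TGFB1, whose latent form binds αV integrins, was the most abundant at 90.8 to 96.1 FPKM in control and 78.1 to 92.6 FPKM in I3 libraries. VCAM1, the counter-receptor of VLA-4, was listed at 0 in every library.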
